A study of Mus musculus with 8 samples.

Results

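The IL-6 family of cytokines was examined in aortic smooth muscle cells treated with jasplakinolide, through 10 genes: the ligands Il11, Il6, Lif, Clcf1 and Ctf1, the receptor chains Osmr, Lifr, Il6st and Il11ra1, and the feedback inhibitor Socs3. The genes were taken by name, and the probe set that stands for each was selected on the highest mean level over all 8 arrays, a choice that mattered only for Socs3, which had 2. A probe set with a single gene symbol was found for 9 of the 10, among 19938 genes in all, and Il11ra1 was not analysed here. The treated cultures, primary smooth muscle cells from the aorta of C57Bl6 mice, received 100 nM jasplakinolide, a membrane-permeable compound that stabilises actin filaments, for 24 h. The control cells went without it for the same time, and both groups were at passage 3 to 4 in DMEM with 10% fetal calf serum. Each group has 4 arrays, and nothing says that these came from separate cultures or animals, so the p-values refer to array-to-array spread that could be partly or wholly technical. Values are log2 RMA expression levels, differences are jasplakinolide minus control, and the number of arrays limits their precision.

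Cytokines of the IL-6 family signal through gp130, the shared receptor chain encoded by Il6st, which pairs with a second signalling chain or with a ligand-binding chain and activates JAK kinases and the transcription factor STAT3. STAT3 switches on Socs3, whose product binds gp130 and ends the signal. In the vessel wall, IL-6 is released by smooth muscle cells under inflammatory stimuli, and IL-11 is known as a product of stromal cells exposed to TGF-beta.

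The sequence before the transcription start of 4 members is shown because these windows hold the letters bound by AP-1 (Il11, Il6, Lif), NF-kB (Il6) or STAT factors (Socs3), which act downstream of stress, inflammatory and cytokine signals. Each run is the 250 bases upstream of a start, written 5′ to 3′ on the strand of the gene, from RefSeq on GRCm38.p6, and capitals mark matches, on either strand, to TGANTCA (AP-1), GGANTTTCC (NF-kB) or TTCNNNGAA (STAT).
Il11, chr7:4778142-4778391, minus strand: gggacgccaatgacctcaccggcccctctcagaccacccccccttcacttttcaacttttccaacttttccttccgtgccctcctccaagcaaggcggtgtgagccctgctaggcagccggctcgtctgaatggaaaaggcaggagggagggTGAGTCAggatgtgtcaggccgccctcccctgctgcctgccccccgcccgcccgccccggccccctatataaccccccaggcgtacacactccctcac
Il6, chr5:30012864-30013113, plus strand: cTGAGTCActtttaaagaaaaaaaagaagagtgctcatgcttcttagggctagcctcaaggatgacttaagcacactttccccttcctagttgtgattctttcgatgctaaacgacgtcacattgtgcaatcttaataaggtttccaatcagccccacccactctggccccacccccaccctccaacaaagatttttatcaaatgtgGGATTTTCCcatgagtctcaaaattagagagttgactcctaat
Lif, chr11:4257318-4257567, plus strand: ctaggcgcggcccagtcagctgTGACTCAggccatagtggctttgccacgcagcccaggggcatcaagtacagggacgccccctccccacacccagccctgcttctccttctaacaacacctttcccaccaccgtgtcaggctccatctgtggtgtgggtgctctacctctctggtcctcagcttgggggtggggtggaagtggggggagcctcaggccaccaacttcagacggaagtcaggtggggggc
Socs3, chr11:117969367-117969616, minus strand: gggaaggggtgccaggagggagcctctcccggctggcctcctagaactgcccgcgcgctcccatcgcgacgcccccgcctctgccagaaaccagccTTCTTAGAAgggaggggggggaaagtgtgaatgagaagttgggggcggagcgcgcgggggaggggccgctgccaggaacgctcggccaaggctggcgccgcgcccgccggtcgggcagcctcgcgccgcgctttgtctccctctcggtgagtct

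The AP-1 letters begin 98 bases before the start in Il11, 249 in Il6 and 228 in Lif. The NF-kB letters begin 43 bases before the start of Il6, and the STAT letters 154 bases before that of Socs3. The table of starts held 12 such windows for 9 of the members (none for Clcf1), and AP-1 letters stood in 3 of the 12, NF-kB letters in 1 and STAT letters in 1. Over all 32851 windows of this length the shares were 6.75%, 1.07% and 7.02%. The motif TATAAA and the CArG box, the recognition element of serum response factor, were in none of the 12, against 12.4% and 1.47% of all windows. GGAATG, the letters bound by TEAD factors, was in 1 of them, a window of Il11ra1, against 12.6% of all windows. A second annotated start of Il11 (upstream window chr7:4782858-4783107) had none of the 6 motifs. No motif searched overlapped another in these windows, and a match is a description of letters, not of binding.

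The arrays were similar in their overall level, with medians over all probe sets between 7.30 and 7.39 log2. All 8 smooth muscle markers (Acta2, Tagln, Cnn1, Myh11, Smtn, Lmod1, Mylk and Des) lay above 6.76 log2. This is the 95th percentile of 1027 olfactory receptor genes, which are silent in most tissues. The same level was passed by 8 of 8 endothelial and 7 of 7 macrophage markers, 4 of 6 fibroblast markers and 1 of 4 lymphocyte markers. It therefore does not tell these cell types apart. On control arrays the endothelial markers averaged 10.78 to 10.84 log2, above the smooth muscle markers at 10.24 to 10.38. On jasplakinolide arrays they averaged 10.51 to 10.67 log2, below the smooth muscle markers at 10.71 to 10.87. All 9 members were above 6.76 log2 too, but this level lies below the median of every array. Passing it is therefore weak evidence that a gene is expressed. In bulk arrays, fewer cells of a type and less RNA per cell cannot be told apart.

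Across the family, 1 of the 9 measured members fell with jasplakinolide, none rose and 8 did not pass the test (limma, adjusted p under 0.05). The gene that fell was Il11, by 1.32-fold. Over all genes 0.772% passed, 0.336% lower and 0.436% higher. With arrays of the same replicate number treated as a pair, again only Il11 of the 9 passed, against 1.89% of all genes. At an unadjusted p under 0.05 the count was 4 of 9 (Il11, Lif, Osmr and Lifr), against 8.87% of all genes. The members were chosen with earlier results of these data known, so these counts are descriptions. The median difference of the members was -0.12 log2, against 0.01 over all genes, with 6 members below 0 and 3 above. All 3 receptor chains lay below 0, while the 5 ligands were divided, with Lif, Clcf1 and Ctf1 above 0 and Il11 and Il6 below.

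**Figure D1:**
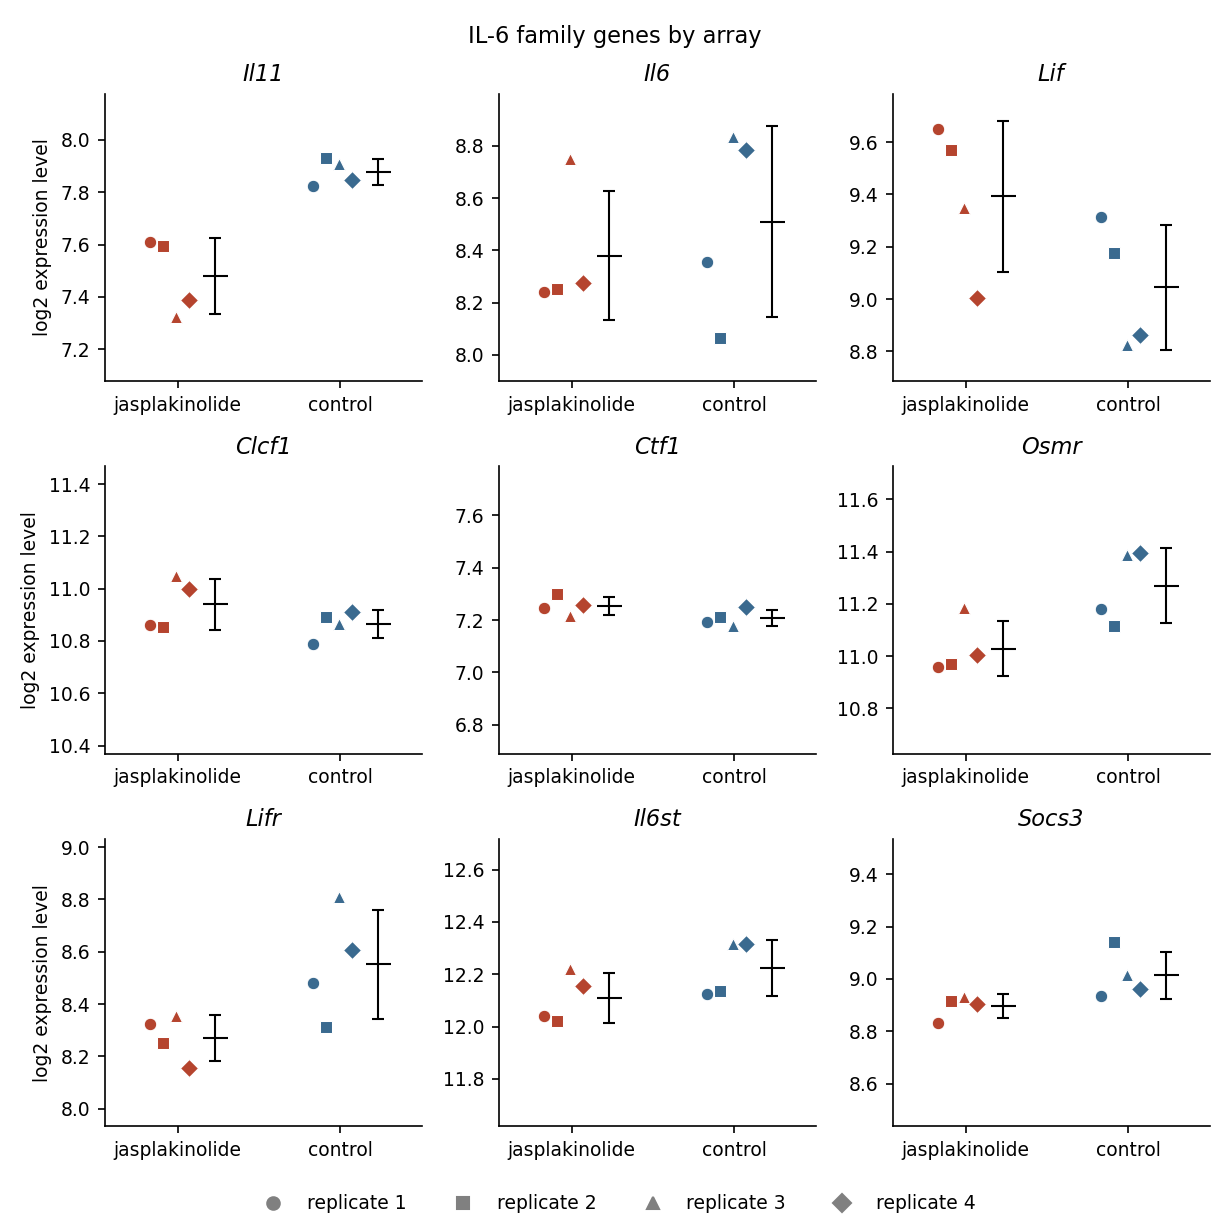
Log2 expression level (vertical axis, the same span of 1.1 log2 units in every panel) of the 9 measured members on the 4 jasplakinolide arrays (red, left) and the 4 control arrays (blue, right). Marker shape gives the replicate number, and the horizontal bar with whiskers is the mean ± SD (n = 4). Only Il11 and Socs3 have groups that do not overlap, and Il6 and Lif have the widest spread within groups.

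Il11 encodes interleukin-11, a cytokine tied to stromal fibrosis. It had 7.61, 7.60, 7.32 and 7.39 log2 on the jasplakinolide arrays, against 7.82, 7.93, 7.91 and 7.85 log2 on the control arrays. Every treated array lay below every control array, and the controls were close together. The probe set was dim: on jasplakinolide 3 and 4 it lay just below the median over all probe sets (7.331 and 7.394 log2). On the other arrays it lay above the median. The means were 7.48 ± 0.15 log2 with jasplakinolide and 7.88 ± 0.05 log2 in control (SD, n = 4 each). The difference was -0.40 ± 0.07 (SE), 1.32-fold lower (95% interval of the ratio 0.678 to 0.848), with an adjusted p of 0.0439 by limma and 0.0451 with the replicate number as a block. The call stood close to the threshold and was lost when any single array was left out, although the difference stayed between -0.44 and -0.35. The adjusted p was then 0.0653, 0.0728, 0.1005 and 0.111 without jasplakinolide 1, 2, 3 and 4, and 0.0954, 0.0804, 0.149 and 0.143 without control 1, 2, 3 and 4. It was also missed after median centring (adjusted p = 0.0501) and a second quantile normalization (adjusted p = 0.0523).

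Lif encodes leukaemia inhibitory factor, a ligand of the LIFR-gp130 pair, and its difference pointed the other way. It had 9.65, 9.57, 9.35 and 9.005 log2 on the jasplakinolide arrays, against 9.32, 9.18, 8.82 and 8.86 log2 on the control arrays. The groups overlapped, since jasplakinolide 4 lay below control 1 and control 2. The difference was 0.35 ± 0.15 (SE), a ratio of 1.27 (95% interval of the log2 difference 0.002 to 0.70), and did not pass (adjusted p = 0.557 by limma). Within each of the 4 same-numbered pairs the treated array was higher, by 0.33, 0.39, 0.53 and 0.14 log2 in pairs 1 to 4. With the block the SE was 0.06 in place of 0.15, and the adjusted p was 0.0629.

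Il6, the founding cytokine of the family, was not distinguishable between the groups. It had 8.24, 8.25, 8.75 and 8.28 log2 on the jasplakinolide arrays, against 8.36, 8.06, 8.83 and 8.78 log2 on the control arrays. Each group held low and high arrays: jasplakinolide 3 stood above the other treated arrays, and control 3 and control 4 stood above control 1 and control 2. The difference was -0.13 ± 0.18 (SE; adjusted p = 0.932 by limma), and the 95% interval of the ratio, 0.690 to 1.21, leaves room for a moderate change either way. Its size rested on single arrays: it was -0.28 without control 2 and -0.25 without jasplakinolide 3, but -0.02 without control 3 and -0.04 without control 4, and -0.32 with array weights. None of these passed (adjusted p 0.350 to 0.998). With the replicate number as a block the SE was 0.10 in place of 0.18, and the adjusted p was 0.619 by limma. The within-group SD of Il6, 0.31 log2, was at the 99.5th percentile of all genes, and that of Lif, 0.27 log2, at the 98.8th percentile.

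The remaining ligands varied little. Clcf1, cardiotrophin-like cytokine factor 1, which acts through a receptor that includes LIFR and gp130, had 10.86, 10.85, 11.05 and 11.00 log2 on the jasplakinolide arrays, against 10.79, 10.89, 10.86 and 10.91 log2 on the control arrays. Jasplakinolide 3 and 4 were above every control array, whereas jasplakinolide 1 and 2 were within the control range. The difference was 0.08 ± 0.06 (SE), with a 95% interval of the ratio of 0.963 to 1.15 (adjusted p = 0.818 by limma). Ctf1, cardiotrophin-1, had 7.25, 7.30, 7.22 and 7.26 log2 on the jasplakinolide arrays, against 7.19, 7.21, 7.18 and 7.25 log2 on the control arrays. Its groups overlapped and all its arrays lay between 7.18 and 7.30 log2. Its within-group SD of 0.03 was at the 3.95th percentile of all genes. The median over all probe sets was higher on every array (7.302 to 7.394 log2). At so dim a level a small spread cannot be told from that of an absent transcript. The difference was 0.05 ± 0.04 (SE), with a 95% interval of the ratio of 0.968 to 1.10 (adjusted p = 0.870 by limma).

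**Figure D2:**
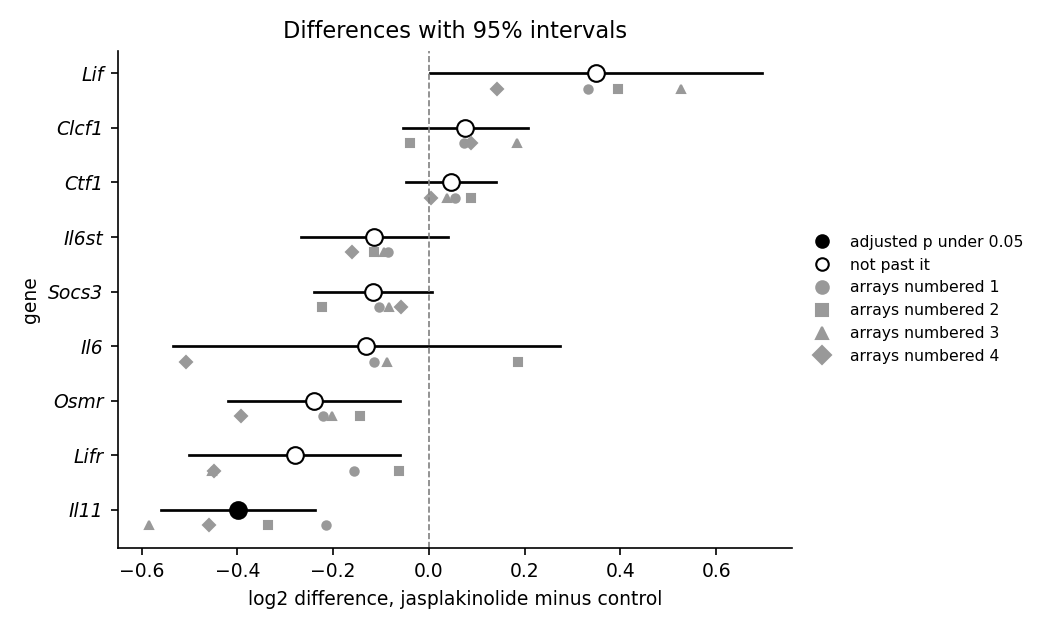
Log2 difference, jasplakinolide minus control (horizontal axis), of the 9 measured members (vertical axis), with the 95% interval from limma as a line and a filled circle where the adjusted p is under 0.05. Grey symbols are the differences within the 4 same-numbered pairs of arrays. Il11 is the only filled circle, the pairs of Lif and Ctf1 are all above 0, and those of Il11, Osmr, Lifr, Il6st and Socs3 are all below 0.

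None of the 3 receptor chains passed the test. Each was lower in all 4 same-numbered pairs, as were Il11 and Socs3, while Lif and Ctf1 were higher in all 4. The share of all genes with 4 pairs in one direction was not counted, and the labels do not state a pairing. The chains also varied together within groups (Pearson 0.931 for Osmr with Il6st, 0.775 for Osmr with Lifr, 0.606 for Lifr with Il6st), so they are not independent of each other. Osmr encodes the oncostatin M receptor. It had 10.96, 10.97, 11.18 and 11.00 log2 on the jasplakinolide arrays, against 11.18, 11.11, 11.39 and 11.40 log2 on the control arrays. Only jasplakinolide 3 reached into the control range. The difference was -0.24 ± 0.08 (SE), a ratio of 0.847 with a 95% interval of 0.748 to 0.959 (adjusted p = 0.322 by limma and 0.0860 with the block). It passed only when limma weighted the arrays by their quality, with a difference of -0.33 (adjusted p = 0.0423).

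Lifr encodes the receptor chain for LIF, cardiotrophin-1 and related ligands. It had 8.32, 8.25, 8.36 and 8.16 log2 on the jasplakinolide arrays, against 8.48, 8.31, 8.81 and 8.61 log2 on the control arrays. Control 2 lay within the treated range and the other control arrays above it. The difference was -0.28 ± 0.10 (SE), a ratio of 0.823 with a 95% interval of 0.707 to 0.959 (adjusted p = 0.356 by limma and 0.161 with the block). Il6st, the gp130 chain itself, had 12.04, 12.02, 12.22 and 12.15 log2 on the jasplakinolide arrays, against 12.13, 12.14, 12.32 and 12.31 log2 on the control arrays. Its groups overlapped, and the difference was -0.11 ± 0.07 (SE), with a 95% interval of the ratio of 0.831 to 1.03 (adjusted p = 0.732 by limma and 0.214 with the block).

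Socs3, the feedback inhibitor, had 8.83, 8.92, 8.93 and 8.90 log2 on the jasplakinolide arrays, against 8.94, 9.14, 9.02 and 8.96 log2 on the control arrays. The groups did not overlap, but the gap was narrow, with 8.932 as the highest treated value and 8.936 as the lowest control value. Groups without overlap were found for 2 of the 9 members, Il11 and Socs3, and for 6.91% of all genes. The difference of Socs3 was -0.12 ± 0.05 (SE), with a 95% interval of -0.24 to 0.01 (adjusted p = 0.597 by limma and 0.271 with the block). The exact permutation test over the 70 labellings (two-sided) gave an unadjusted p of 0.0286 for Socs3 and for Il11, the smallest that 4 against 4 arrays allow. Groups that do not overlap always give this value, so it repeats the lack of overlap and is no further test. The second Socs3 probe set, dimmer and not used in the fit, had a mean of 7.52 ± 0.05 with jasplakinolide and 7.61 ± 0.21 log2 in control (SD, n = 4 each), and its groups overlapped.

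Within groups, some members varied together from array to array. Over all genes, same-numbered arrays deviated together from their group means (correlation 0.241 to 0.563, against -0.618 to 0.521 between other arrays). The 8 arrays are therefore not 8 independent points. The deviations of Il6 had the same sign in pairs 1, 2 and 3 and opposite signs in pair 4. After each group's mean had been subtracted, Il6 and Osmr had a Pearson correlation of 0.987 over the 8 arrays (Spearman 0.976, and Pearson 0.9753 without the 2 arrays farthest from the median of Il6, jasplakinolide 3 and control 3). Osmr and Il6st correlated at 0.931, Il6 and Il6st at 0.880, and Il6 and Lifr at 0.845. Lif ran against them, at -0.814 with Il6st and -0.596 with Osmr. The 36 pairs of members ranged from -0.814 to 0.987, and 15 were above 0. These are descriptions, as all genes share the arrays, their RNA and their normalization, and with so many genes a close match is common: the highest correlation any gene had with another was 0.9904 in the median over all genes.

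By that measure the genes most like Il6 were Vezf1 (0.989), Rexo5 (0.987) and Osmr (0.987). Those most like Il11 were Csta1 (0.972), Rps19 (0.960) and Itgbl1 (0.958). Apart from Il6 with Osmr, neither set holds a member. Of the 6 only Itgbl1 passed the test between groups, with a difference of -0.32 (adjusted p = 0.0215 by limma).

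**Figure D3:**
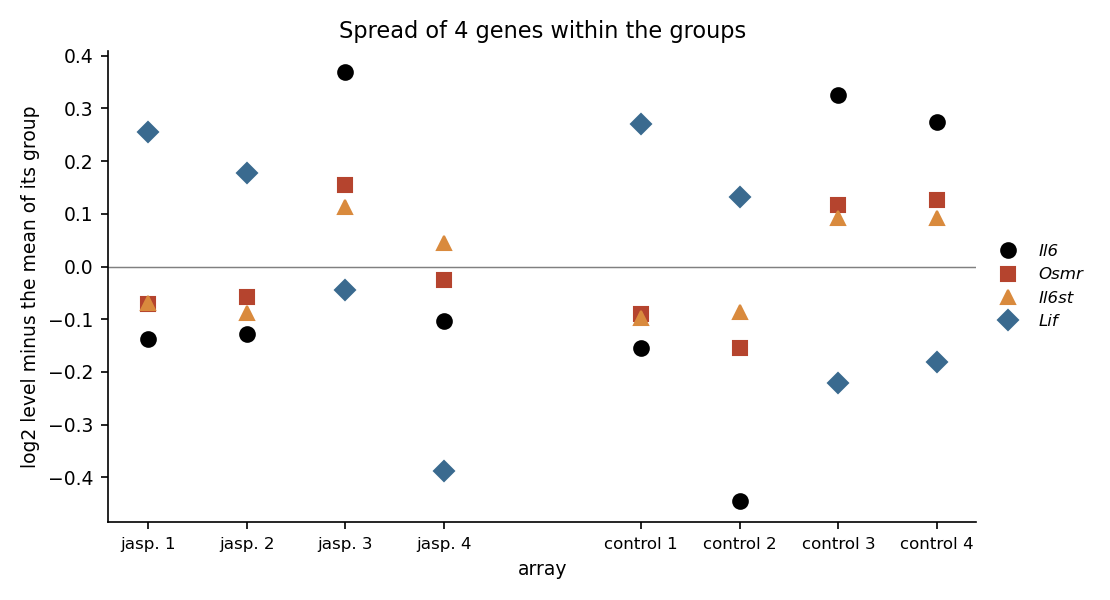
Log2 level minus the mean of its own group (vertical axis) for Il6, Osmr, Il6st and Lif on each of the 4 jasplakinolide arrays (left) and the 4 control arrays (right). Il6, Osmr and Il6st are above their group mean together on jasplakinolide 3, control 3 and control 4, and Lif is below its own on those arrays.

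Around the members, 81 further genes of the pathway were measured in 6 lists, of which 1 rose, 1 fell and 79 did not pass (12 had an unadjusted p under 0.05). Over all genes 0.772% passed and 8.87% had an unadjusted p under 0.05. The lists were also chosen with earlier results of these data known, so their counts are descriptions. None of 5 other ligands passed (limma, none at an unadjusted p under 0.05), with Osm, oncostatin M, at 0.09 ± 0.09 and Ebi3, a subunit of IL-27, at 0.08 ± 0.09 (SE). None of 4 other receptors passed (1 at an unadjusted p under 0.05). Il6ra, the ligand-binding chain for IL-6, had 8.03, 7.98, 8.01 and 8.02 log2 on the jasplakinolide arrays, against 8.10, 8.19, 8.33 and 8.08 log2 on the control arrays. Its groups did not overlap, and the difference of -0.16 ± 0.06 (SE) had an adjusted p of 0.391. Il27ra differed by -0.14 ± 0.09 (SE; adjusted p = 0.755).

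The signal relay and its brakes did not pass either. Of 10 genes of the JAK-STAT relay none passed and 1 had an unadjusted p under 0.05. The kinase gene Tyk2 differed by 0.18 ± 0.07 (SE; adjusted p = 0.485) and Stat3, the main transcription factor of the pathway, by -0.12 ± 0.06 (SE; adjusted p = 0.666). Of 13 negative regulators and shedding enzymes none passed and 1 had an unadjusted p under 0.05. The largest differences were those of Adam17, which cleaves the IL-6 receptor from the cell surface, at -0.18 ± 0.06 (SE; adjusted p = 0.362), and of Cish, a STAT-induced inhibitor, at 0.08 ± 0.05 (SE; adjusted p = 0.776). The medians of these lists were -0.002 and -0.01 log2, against 0.01 over all genes.

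Of 23 known STAT3 targets, 1 fell, none rose and 22 did not pass, and 17 were below 0 with a list median of -0.09 log2. Over all genes 8698 of 19938 were below 0 and the median was 0.01 log2. The gene that fell was Lcn2, lipocalin 2, at -0.65 ± 0.10 (SE; adjusted p = 0.0308 by limma). It had 8.34, 8.37, 8.33 and 7.95 log2 on the jasplakinolide arrays, against 8.80, 8.74, 9.03 and 9.01 log2 on the control arrays. Its adjusted p was 0.0742, 0.0641 and 0.0812 without jasplakinolide 1, 2 and 3, and 0.0599, 0.101 and 0.1201 without control 1, 3 and 4. Of the 23 genes, 7 had an unadjusted p under 0.05, against 8.87% of all genes, and 5 had groups that did not overlap, against 6.91% of all genes. As the list was chosen with earlier results of these data known, these counts only describe it.

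A further list held 26 genes tied to the induction of Il6 and Il11 or to mRNA decay, inhibitors of NF-kB among them. Of these 1 rose, none fell and 25 did not pass, with a median of 0.01 log2. An unadjusted p under 0.05 was found for 2 of them. The gene that rose was Tgfb3, transforming growth factor beta 3. Any relation between Tgfb3 and the fall of Il11 was not tested. Tgfb3 had 11.25, 11.19, 11.48 and 11.65 log2 on the jasplakinolide arrays, against 10.65, 10.62, 10.79 and 10.69 log2 on the control arrays. All treated arrays were above all control arrays. The difference was 0.70 ± 0.10 (SE), 1.63-fold, with an adjusted p of 0.0156 by limma and 0.0151 with the block. It missed the threshold without jasplakinolide 3 (adjusted p = 0.0673), control 1 (0.0507) or control 4 (0.0712), with differences of 0.67, 0.69 and 0.70.

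**Figure D4:**
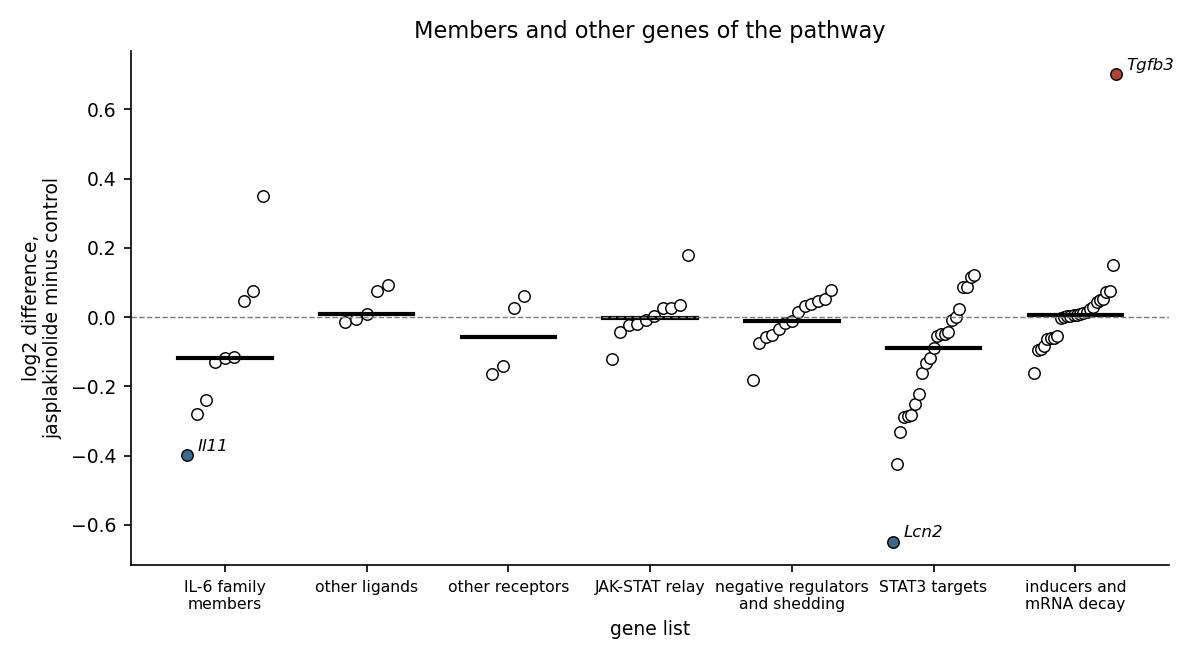
Log2 difference, jasplakinolide minus control (vertical axis), of the 9 measured members and of 6 lists of other pathway genes (horizontal axis). Each circle is a gene, filled and named where the adjusted p is under 0.05, and thick lines are list medians. Il11 and Lcn2 are the filled circles below 0 and Tgfb3 the filled circle above it.

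Marker genes of cell types moved beside these results. Over all genes 0.436% rose and 0.336% fell, 1.89% passed with the block in either direction, and 8.87% had an unadjusted p under 0.05. The mean level of the 8 smooth muscle markers was 10.71 to 10.87 log2 on jasplakinolide arrays and 10.24 to 10.38 on control arrays, and 5 of the 8 rose. That of the 8 endothelial markers was 10.51 to 10.67 log2 on jasplakinolide arrays and 10.78 to 10.84 on control arrays, and 1 of the 8 fell (3 with the block). The 7 macrophage markers averaged 7.96 to 8.08 log2 on jasplakinolide arrays and 7.97 to 8.08 on control arrays, and none passed. The 3 at an unadjusted p under 0.05 were Itgam and Lyz2, which were higher, and Cd68, which was lower. Of these only Cd68 passed with the block. The 6 fibroblast markers averaged 8.09 to 8.21 log2 on jasplakinolide arrays and 8.21 to 8.41 on control arrays, and none passed (2 at an unadjusted p under 0.05, 1 lower with the block). The 4 lymphocyte markers, at 5.70 to 5.88 log2 on jasplakinolide arrays and 5.66 to 5.91 on control arrays, had none past the test or at an unadjusted p under 0.05. The part of the smooth muscle or endothelial marker differences in the difference of Il11 was not tested.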

How the data were processed

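Gene expression was measured on 8 Affymetrix arrays, 4 per group. The deposited values are log2 levels of 35556 probe sets. Per the submitters' processing notes, the authors computed them by RMA using Affymetrix Expression Console, for which no version was found in the sources used here. The groups come from the sample titles, since the treatment note is the same for all samples.

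Gene names of the probe sets come from GEO's platform annotation (21789 with 1 gene symbol, 1621 with several, 12146 with none), and for each gene the one with the highest mean was kept. The members and the gene lists were chosen with earlier results of these data known. All 10 members are named, as are up to 4 genes per list past the test, or the 2 with the largest differences. Neighbours are the 3 genes with the highest group-centred correlation with Il6 and with Il11, the member with the largest difference. Of 87 listed pathway genes, 6 are not analysed here.

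All 19938 genes were fitted with limma 3.58.1 in R 4.3.3 (lmFit, eBayes, two-sided) and adjusted by Benjamini-Hochberg over all of them; the threshold was 0.05. Intervals use 6 residual and 3.43 prior degrees of freedom. The fit was tested on simulated data. No filter was used. Same-numbered arrays deviated together from their group means (correlation 0.241 to 0.563 in the 4 pairs, -0.618 to 0.521 between other arrays). The highest value between other arrays, for jasplakinolide 4 with control 2, was above those of pairs 2 (0.241) and 4 (0.443). The labels do not say that the numbers pair the samples. The main fit was therefore unpaired, and the replicate block was an alternative. Motifs were searched in Python 3.11.15 and figures drawn with matplotlib 3.10.9. Alternatives were the replicate block, cyclic loess, median centring, another round of quantile normalization, array weights, the brighter 75% or 50% of genes, a robust prior with an intensity trend, averaged probe sets, an exact permutation test and leaving out arrays.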

Additional observations from a re-analysis of the deposited data

Results flagged for a closer look

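Il6 on jasplakinolide 3, at 8.75 log2, stood apart from the other jasplakinolide arrays, of which the nearest was at 8.28 log2. Its gap to that array took up 0.931 of the range of the group, above the 95% critical value of Dixon's test for 4 samples. In all, 18 sets of 4 arrays were looked at (9 genes in each group), and chance singles out about 1 in 20. Osmr came closest after it, also on jasplakinolide 3, with a gap of 0.799 of the range. Control 3, the array of the same number, had the highest Il6 level of all 8 arrays, at 8.83 log2. Within pair 3 Il6 differed by -0.09 log2.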

How the results depend on the processing

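All differences of the 9 members kept their sign under the 18 alternative fits, and 148 of 160 kept their side of the threshold. Most of the 148 were members that passed neither in the main fit nor in the alternative. Of the rest, 11 lost the call, all of them for Il11, the only member called, and 1 gained it. With 1 array left out, the difference of Il11 was -0.44 to -0.35 and lost its call in 8 of 8 fits, each of which had fewer samples. Il11 also missed the threshold after median centring (-0.40) and a second quantile normalization (-0.39), and without control 2 and jasplakinolide 4 together (-0.35, adjusted p = 0.145), a setting chosen after seeing the data, whereas it kept it with the replicate block (adjusted p = 0.0451), cyclic loess, the brighter 75% of genes, trend, weights and the mean of probe sets (adjusted p 0.0254 to 0.0436). It was not among the brighter 50% of genes. Among members that did not pass, leaving out 1 array moved the difference by over 1.5 times for Il6 (-0.28 to -0.02), Clcf1 (0.04 to 0.11, lowest without jasplakinolide 3) and Socs3 (-0.14 to -0.07, smallest without control 2). Osmr passed with array weights (-0.33). Socs3 (-0.12) passed the unadjusted exact permutation test, as does any gene with groups that do not overlap (6.91% of all genes).

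The count of members that fell was 1. It became 0 after median centring, a second quantile normalization, among the brighter 50% of genes and without control 2 and jasplakinolide 4. With any 1 array left out it was 0, and with array weights it was 2. The exact permutation test also gave 2, but at an unadjusted p under 0.05, a threshold unlike that of the other counts. These were Il11 and Socs3, whose lack of overlap fixes that result. Of the other pathway genes 1 rose, and 0 to 1 with 1 array left out. Of them 1 fell, and 2 after a second quantile normalization, cyclic loess or in the brighter 75% or 50% of genes, 3 with the trend, 5 with array weights and 0 to 1 with 1 array left out.

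Over all genes 87 rose and 67 fell. Under the replicate block these counts were 162 and 215, after a second quantile normalization 131 and 145, after cyclic loess 137 and 162, in the brighter 50% of genes 155 and 141, with the trend 193 and 165, with array weights 223 and 234. After median centring 69 rose and 34 fell, in the brighter 75% of genes 121 rose and 110 fell, and without control 2 and jasplakinolide 4 together 52 rose and 57 fell. With 1 array left out 35 to 67 rose and 8 to 83 fell. The causes of these shifts were not tested, beyond the smaller number of genes or samples in some of the fits. The block changed no call of a member. No detection calls were used, so a dim probe set cannot be told from an absent transcript.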
